A study of Mus musculus with 11 samples.

Results

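RNA-seq libraries from the developing mouse face were compared between embryos labelled as homozygous mutants of *Wnt9b* (labelled Wnt9bKO, 3 libraries) and wild-type embryos (wt, 2 libraries), which are 5 of the 11 libraries of the series. The members were chosen by their labels alone. The other 6 libraries, 3 labelled Rspo2KO (homozygous mutant of *Rspo2*) and 3 labelled DKO (both genes mutant), entered the model to share the estimate of spread, and they are cited only where they show how the Wnt9bKO libraries stood in the series. Every library was made from total RNA of facial process explants, taken from the first branchial arch (mandibular and maxillary parts) together with the nasal processes, dissected at embryonic day 10.5 from mice of a mixed strain. No deletion restricted to a tissue is named for any of these mutants. The exons that the *Wnt9b* allele lacks and the number of embryos behind each library are not given in the sources used here, so that p-values measure the spread between these libraries, which may in part be technical. Gene-by-gene results are described across autosomal protein-coding genes, of which 14025 of the 20126 counted passed the filter on low counts.

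*Wnt9b* encodes a secreted WNT ligand made by the ectoderm that covers the facial processes. WNT ligands bind Frizzled receptors and the co-receptors LRP5 and LRP6, which halts the breakdown of β-catenin and lets it switch on target genes together with TCF/LEF factors. R-spondins such as RSPO2, made by the underlying mesenchyme, raise the response by removing the ubiquitin ligases ZNRF3 and RNF43 from the cell surface. Embryos without *Wnt9b* develop cleft lip and palate, because the nasal and maxillary processes grow too little and do not fuse.

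The wt libraries held 11136166 and 16764595 counts, and the libraries labelled Wnt9bKO held 16815155 to 17156003. Levels are given in CPM, counts scaled to a library total of 1e6 after TMM scaling. The 2 groups also differed in sex-linked transcripts. *Xist*, the RNA that coats the inactive X chromosome of females, reached 679 and 905 CPM in wt but only 1.56 to 1.85 CPM in the other group, and counts summed over 169 Y-linked genes were 501 and 721 in wt against 5267 to 5528. Sex and genotype cannot be told apart in this comparison, and for this reason X- and Y-linked genes are left out. The libraries labelled Rspo2KO had *Xist* levels of 0.820 to 1.94 CPM, on the side of those labelled Wnt9bKO. Values against them are given beside part of the results as a second reference. Both comparisons use the same libraries labelled Wnt9bKO, so they are not independent. In their share of small non-coding RNA, given below, the libraries labelled Rspo2KO stood on the side of wt.

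The mutated gene was examined first. *Wnt9b* (chr11:103727364-103749821, GRCm38, minus strand) stood at 10.8 and 13.4 CPM in the wt libraries and at 23.3, 16.3 and 16.2 CPM in the libraries labelled Wnt9bKO 1, 2 and 3. All 3 mutant-labelled values lay above both wt values, so the transcript was not reduced. The log2 fold change was 0.61 (SE 0.18, adjusted p = 0.0163, edgeR), and it no longer passed without wt 1 (0.47, adjusted p = 0.163) or without Wnt9bKO 1 (0.42, adjusted p = 0.0546). Counts per gene do not show single exons, and an allele that leaves the transcript in place would not lower them. *Rspo2* (chr15:43020794-43170826, minus strand) stood at 14.8 and 16.0 CPM in wt and at 22.8, 2.86 and 18.1 CPM in Wnt9bKO 1, 2 and 3. The library labelled Wnt9bKO 2 thus lay below the libraries labelled Rspo2KO, which held 4.73 to 6.58 CPM, and its *Rspo2* level goes against its label. The library labelled DKO 3 held 15.5 CPM, near the wt level, against 4.17 and 3.67 CPM in DKO 1 and 2, so its level goes against its label too. Wnt9bKO 2 was kept under its label, and results that rest on it are given with and without it.

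Of the 14025 autosomal protein-coding genes tested, 1532 (10.9%) rose and 1340 (9.55%) fell in the libraries labelled Wnt9bKO, at an adjusted p under 0.05 and a change of more than 1.5-fold. These 2 shares are the background for each gene group below. With p unadjusted, 1762 genes (12.6%) were higher and 1502 (10.7%) lower. The median log2 fold change over all 14025 genes was -0.02. The values of the 2 groups of libraries did not overlap for 3760 genes (26.8%) that were higher and 4304 genes (30.7%) that were lower. Changes were mostly moderate, with a median fold of 1.85 among the genes that rose and 1.75 among those that fell, and 29 and 47 of them exceeded 4-fold. Without Wnt9bKO 2 the counts were 1627 (11.6%) and 1110 (7.94%), without wt 1 they were 1034 (7.24%) and 1164 (8.15%), and without wt 2 they were 1235 (8.64%) and 1115 (7.8%). A stricter test of whether the fold itself exceeds 1.5 (glmTreat) called 318 genes higher and 269 lower. Against the libraries labelled Rspo2KO, 755 genes (5.38%) were higher and 1061 (7.57%) lower. On single autosomes between 8.80% and 13.1% of genes rose and between 4.24% and 13.7% fell.

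The direction of change went with transcript length. In the tenth of genes with the shortest exon length (102 to 1804 bases) the median log2 fold change was -0.38, 27.9% of genes fell and 4.63% rose. In the tenth with the longest exons (10037 bases and more) the median was 0.29, 22.7% rose and 0.855% fell. The median length was 6156 bases among the genes that rose, 2649 bases among those that fell and 4482 bases overall. The ratio of wt 1 to wt 2 showed no such slope, with medians from -0.0385 to -0.00459 across the same bins. A loess offset on length and GC content brought the longest bin to -0.02 and the shortest to -0.23, and then 1303 genes (9.29%) rose and 1180 (8.41%) fell, of which 1134 and 968 were among the calls without it. Counts with this offset are therefore given beside the groups in which it moved them by more than 1 gene.

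**Figure D1:**
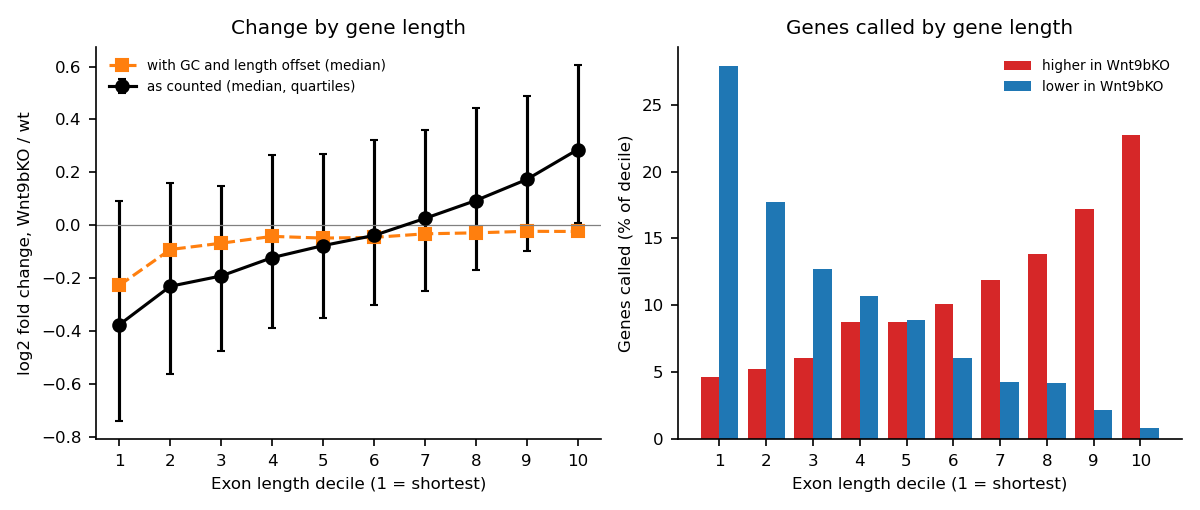
Autosomal protein-coding genes in 10 bins of exon length, from shortest to longest. Left, median log2 fold change of the libraries labelled Wnt9bKO over wt with quartiles as bars (black), and the median with an offset on GC content and length (orange). Right, percent of the genes of each bin that were called higher (red) or lower (blue). The median climbs from -0.38 to 0.29 as counted, and with the offset all bins but the shortest lie between -0.09 and -0.02.

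The list of WNT ligands leaves out *Wnt9b*, which was called higher as given above. Of its 18 genes, 17 passed the filter, none rose and 2 fell (median log2 fold change -0.18). These 2 genes are neighbours on chromosome 11. *Wnt9a* (chr11:59306928-59333552) stood at 4.55 and 4.22 CPM in wt and at 1.76, 2.44 and 2.22 CPM in Wnt9bKO (log2 fold change -1.04, SE 0.29, adjusted p = 0.0117). *Wnt3a* (chr11:59248033-59290752), a ligand of the dorsal midline, stood at 1.96 and 1.45 CPM against 0.638, 0.536 and 0.479 CPM (-1.59, SE 0.45, adjusted p = 0.0131). Neither gene's groups overlapped, and both genes were also lower than in the libraries labelled Rspo2KO (-0.88, adjusted p = 0.0198, and -1.62, adjusted p = 0.00791). Without wt 1 neither of these calls passed (adjusted p = 0.0747 and 0.104), and without wt 2 that of *Wnt9a* did not (adjusted p = 0.0532). *Wnt5a*, the most abundant ligand of the list, stood at 72.8 and 74.1 CPM in wt and ranged from 48.3 to 102 CPM in Wnt9bKO, so its groups overlapped. Without Wnt9bKO 1 the list gave 1 higher and 3 lower.

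Of 16 Frizzled receptors and co-receptors, 2 rose and 1 fell. *Lrp6*, the co-receptor of canonical signaling, was at 128 and 152 CPM in wt and at 283, 266 and 259 CPM in Wnt9bKO, without overlap. Its log2 fold change was 0.94 (SE 0.13, adjusted p = 9.55e-05) and 0.60 with the offset for its long transcript of 13672 bases. *Fzd10* fell from 40.2 and 36.5 CPM to 22.4, 15.1 and 17.9 CPM (-1.05, SE 0.21, adjusted p = 0.00213). *Fzd5* was at 22.1 and 18.9 CPM in wt and at 28.1, 49.97 and 31.7 CPM in Wnt9bKO (0.84, adjusted p = 0.0483), with Wnt9bKO 2 highest. Its call was lost without Wnt9bKO 2 (adjusted p = 0.0908), without wt 1 (0.128), without wt 2 (0.250) and with the offset (0.0726).

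None of the 7 R-spondins, LGR receptors and ubiquitin ligases tested, of 8 listed, passed both thresholds. *Lgr4*, the most abundant R-spondin receptor here, stood at 93.7 and 103 CPM in wt and at 89.9, 103 and 85.7 CPM in Wnt9bKO (log2 fold change -0.09, SE 0.11, adjusted p = 0.551). *Znrf3*, the ligase that removes Frizzled receptors, was at 45.3 and 42.5 CPM against 29.3, 32.8 and 34.7 CPM. All 3 values lay under both wt values, by a log2 fold change of -0.44 (SE 0.15, adjusted p = 0.0356), short of the fold threshold, and each library left out in turn brought the adjusted p above the threshold, up to 0.193 without wt 1. With the offset it passed both thresholds (-0.59, adjusted p = 0.00925).

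Secreted WNT antagonists gave 1 higher and 3 lower genes of 15 tested, of 17 listed. *Sfrp2*, which binds WNT ligands outside the cell, rose from 17.3 and 20.8 CPM to 45.6, 42.3 and 38.2 CPM (log2 fold change 1.14, SE 0.15, adjusted p = 8.05e-05). *Draxin* fell from 12.1 and 13.9 CPM to 7.13, 7.92 and 7.43 CPM (-0.80, SE 0.16, adjusted p = 0.00133). These 2 calls held with each library left out. *Notum*, which cleaves the lipid from WNT proteins, was at 3.30 and 3.68 CPM in wt and at 2.23, 0.596 and 0.899 CPM in Wnt9bKO (-1.47, SE 0.41, adjusted p = 0.0125). *Dkk1*, which blocks LRP co-receptors, was at 11.2 and 9.35 CPM against 7.66, 2.86 and 6.35 CPM (-0.86, SE 0.30, adjusted p = 0.0412). For both genes Wnt9bKO 2 was the lowest library. *Notum* did not pass without Wnt9bKO 3 (adjusted p = 0.0509) or wt 2 (0.0906). *Dkk1* did not pass without Wnt9bKO 2 (-0.52, adjusted p = 0.0913), without Wnt9bKO 3 (0.0661), wt 1 (0.212) or wt 2 (0.0920), or with the offset (0.0668). The list gave 2 higher and 5 lower without Wnt9bKO 1, 3 and 2 without Wnt9bKO 2, and 1 and 1 without Wnt9bKO 3 or wt 2. Against the libraries labelled Rspo2KO neither *Notum* nor *Dkk1* passed the test (-0.24, adjusted p = 0.713, and 0.01, adjusted p = 0.984).

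Within the cell, 5 of 29 components of the β-catenin pathway rose and 1 fell. *Gsk3b*, the kinase that marks β-catenin for breakdown, stood at 94.5 and 109 CPM in wt and at 292, 263 and 295 CPM in Wnt9bKO. Its log2 fold change was 1.47 (SE 0.17, adjusted p = 2.25e-05), 1.21 with the offset and 0.77 against the libraries labelled Rspo2KO. The transcription factors *Tcf7l1* and *Tcf7l2* stood beside it. *Tcf7l1* rose from 5.53 and 7.0 CPM to 19.8, 17.7 and 21.3 CPM (1.63, SE 0.25, adjusted p = 2.94e-04), and *Tcf7l2* from 20.3 and 18.3 CPM to 40.3, 37.8 and 44.9 CPM (1.09, SE 0.18, adjusted p = 3.34e-04). The β-catenin co-activators *Bcl9* and *Bcl9l* completed the 5, with log2 fold changes of 1.01 and 0.92. *Csnk1g2*, a casein kinase that phosphorylates LRP6, fell from 197 and 211 CPM to 132, 110 and 119 CPM (-0.77, SE 0.11, adjusted p = 1.30e-04). *Ctnnb1*, the gene of β-catenin itself, stood at 1432 and 1497 CPM in wt and at 1335 to 1460 CPM in Wnt9bKO, with overlapping groups (-0.09, adjusted p = 0.605). Without wt 2, 3 genes of the list rose, and 2 and 3 fell without Wnt9bKO 1 and wt 1.

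The listed target genes of β-catenin did not move one way. Of 22 genes tested, 1 rose and 2 fell, 11 had a positive and 11 a negative log2 fold change, and the median was 0.01. *Axin2*, a feedback inhibitor induced by the pathway in most tissues, stood at 55.0 and 53.0 CPM in wt and at 75.1, 42.8 and 53.7 CPM in Wnt9bKO (0.08, SE 0.22, adjusted p = 0.803). Wnt9bKO 1 was above and Wnt9bKO 2 below both wt libraries, and the estimate was -0.16 without Wnt9bKO 1. *Lef1*, a factor that pairs with β-catenin, was at 24.0 and 22.0 CPM against 42.9, 24.6 and 40.4 CPM (0.65, SE 0.29, adjusted p = 0.113), and of the alternatives run it passed where Wnt9bKO 2 was left out (0.88, adjusted p = 0.0224) or with DESeq2 (0.64, adjusted p = 0.0466). The 2 that fell were *Notum* and *Dkk1*. The counts moved to 0 higher and 5 lower without Wnt9bKO 1, to 2 and 1 without Wnt9bKO 2, to 1 and 0 without Wnt9bKO 3 or wt 2, and to 1 and 1 without wt 1.

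The ectodermal and mesenchymal genes that the study followed as downstream of WNT signaling did not pass the test against wt. *Fgf8*, a growth factor of the facial ectoderm, stood at 10.9 and 7.48 CPM in wt and at 7.77, 9.71 and 11.7 CPM in Wnt9bKO (log2 fold change 0.09, SE 0.25, adjusted p = 0.809). *Fgf10* stood at 8.21 and 9.35 CPM against 9.41, 6.19 and 11.3 CPM (0.02, SE 0.21, adjusted p = 0.943). The groups of both genes overlapped, and their sign changed with the processing. Against the libraries labelled Rspo2KO, at 4.86 to 6.19 CPM, *Fgf8* was higher (0.80, adjusted p = 0.0178). *Fgf10* did not pass there (0.28, adjusted p = 0.296). *Msx1*, a homeobox gene of growing facial mesenchyme, stood at 137 and 125 CPM in wt and at 136, 35.1 and 90.5 CPM in Wnt9bKO. Wnt9bKO 1 lay between the wt libraries while Wnt9bKO 2 was far below them, and the log2 fold change of -0.59 (SE 0.48, adjusted p = 0.400) became -0.18 (adjusted p = 0.615) without Wnt9bKO 2. Its relative *Msx2* was at 10.98 and 11.2 CPM against 15.1, 6.19 and 13.96 CPM (0.09, adjusted p = 0.877), again lowest in Wnt9bKO 2. *Bmp4* followed the same order of libraries, with 15.7 and 12.9 CPM in wt and 18.8, 9.53 and 16.96 CPM in Wnt9bKO (0.09, adjusted p = 0.790). *Edn1*, a signal that patterns the lower jaw, was at 1.16 and 0.543 CPM against 1.28, 2.08 and 1.32 CPM (0.93, SE 0.40, adjusted p = 0.0829). Its 3 mutant-labelled values lay above both wt values at a level where few reads were counted. *Edn1* passed with the replicate number as a block (1.07, adjusted p = 0.0486). Without Wnt9bKO 2, its highest library, it did not pass (0.70, adjusted p = 0.212).

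A WNT-responsive promoter was examined through its sequence. The letters CTTTGAT, a core TCF/LEF motif, were searched on both strands (as CTTTGAT and ATCAAAG) from 250 bases before to 50 bases after the RefSeq starts, and 1225 of 32851 promoters (3.73%) held them. The share was 2.52% over promoters of autosomal protein-coding genes tested, 2.74% among genes that rose and 2.89% among genes that fell. Of the target genes, 13 matched the table with 18 promoters, and only that of *Sp5*, a zinc finger gene induced by WNT signaling, held the motif. Its promoter is shown for the motif (GRCm38.p6, chr2:70474673-70474972, plus strand, motif in capitals).
Sp5: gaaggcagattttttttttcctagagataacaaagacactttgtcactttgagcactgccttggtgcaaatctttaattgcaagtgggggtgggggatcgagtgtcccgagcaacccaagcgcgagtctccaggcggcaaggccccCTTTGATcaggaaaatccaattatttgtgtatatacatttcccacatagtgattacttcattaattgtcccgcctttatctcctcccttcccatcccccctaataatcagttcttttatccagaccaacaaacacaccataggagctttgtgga
*Sp5* itself stood at 0.803 and 0.664 CPM in wt and at 0.479, 0.774 and 0.839 CPM in Wnt9bKO, with overlapping groups (log2 fold change -0.07, adjusted p = 0.919).

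Planar cell polarity genes, which orient cells within a sheet through non-canonical WNT signaling, were higher on balance. Of 13 tested, of 14 listed, 3 rose and none fell, 11 had a positive log2 fold change, and the median was 0.54 (0.33 with the offset). *Vangl2* rose from 44.5 and 45.1 CPM to 95.6, 102 and 95.4 CPM (1.13, SE 0.15, adjusted p = 7.74e-05). The atypical cadherins *Celsr1* (20.8 and 18.5 CPM against 32.7, 39.5 and 36.5 CPM) and *Celsr3* (9.64 and 9.66 CPM against 20.3, 14.4 and 16.2 CPM) rose by 0.89 (adjusted p = 0.00528) and 0.82 (adjusted p = 0.0192). All 3 genes were separated between the groups. *Celsr1* did not pass without wt 2 (adjusted p = 0.0670), nor *Celsr3* without either wt library (0.111 in both cases) or without Wnt9bKO 1 (0.0611). The number that rose was 6 without Wnt9bKO 2, 2 without Wnt9bKO 1 and 1 without wt 2. Against the libraries labelled Rspo2KO, 1 gene of the list rose. *Vangl2* was higher there too (0.79, adjusted p = 4.91e-04), while *Celsr1* did not pass (0.29, adjusted p = 0.261) and *Celsr3* had the opposite sign (-0.33, adjusted p = 0.247).

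The Hedgehog pathway, which drives outgrowth of the facial midline and processes, held 5 genes that rose and none that fell of 12 tested (median 0.30, 0.22 with the offset). *Ptch1*, receptor and target of Hedgehog, rose from 47.0 and 60.7 CPM to 106, 110 and 113 CPM (log2 fold change 1.02, SE 0.17, adjusted p = 5.68e-04). *Gli3*, whose product is mainly a repressor of the pathway, rose from 100 and 114 CPM to 157, 232 and 228 CPM (0.94, SE 0.22, adjusted p = 0.00655). *Gli2* and *Sufu* rose by 0.86 and 0.72, and the groups overlapped for none of these 4 genes. The ligand *Shh* stood at 13.1 and 13.4 CPM in wt and at 11.6, 13.9 and 15.3 CPM in Wnt9bKO, and *Gli1*, a sensitive target, at 25.9 and 23.6 CPM against 30.8, 26.0 and 25.3 CPM (adjusted p = 0.891 and 0.513). The count was 5 with the offset, 1 without wt 1, 3 without wt 2, and 0 against the libraries labelled Rspo2KO.

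FGF ligands, receptors and response genes gave 3 higher and 1 lower of 19 tested, of 21 listed. *Spred2* and *Etv5*, both induced by FGF signaling, rose by 1.14 (adjusted p = 0.00661) and 0.63 (adjusted p = 0.00507) on the log2 scale. *Fgf15* was at 4.64 and 3.44 CPM in wt and at 6.33, 17.9 and 10.96 CPM in Wnt9bKO (1.55, SE 0.49, adjusted p = 0.0355), highest in Wnt9bKO 2 and below the threshold without it (1.14, adjusted p = 0.0604), as also without Wnt9bKO 3 (0.0574), wt 1 (0.107) or wt 2 (0.215). *Fgfr3* fell from 41.3 and 49.3 CPM to 24.8, 17.4 and 26.5 CPM (-0.99, SE 0.23, adjusted p = 0.00628). *Spred2* did not pass without wt 1 (0.0786), nor *Etv5* and *Fgfr3* without wt 2 (0.0597 and 0.0686). Without Wnt9bKO 2 or wt 1 the counts were 1 higher and 1 lower, and without wt 2 they were 1 and 0. Of 20 BMP pathway genes 2 rose, *Smad7* (0.73, adjusted p = 0.00967) and *Grem1* (0.72, adjusted p = 0.0456), while none rose and 1 fell without Wnt9bKO 1, and 1 rose without Wnt9bKO 3, wt 1 or wt 2. Without wt 2 *Smad7* had an adjusted p of 0.169, and *Grem1* passed with none of the libraries left out but Wnt9bKO 2, nor with the replicate number as a block (adjusted p = 0.0584).

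The identity of the tissue was checked through facial patterning and mesenchyme factors, and all 31 and 18 of them were expressed above the filter. Their summed levels were 881 and 909 CPM in wt against 755 to 1200 CPM in Wnt9bKO for the patterning factors, with Wnt9bKO 2 lowest and Wnt9bKO 1 highest, and 1438 and 1442 CPM against 1428 to 1882 CPM for the mesenchyme factors. Of the patterning factors 4 rose and none fell (median 0.25). *Tfap2b*, a neural crest factor, rose from 45.8 and 43.2 CPM to 73.3, 74.7 and 73.6 CPM (0.73, SE 0.13, adjusted p = 5.05e-04). *Ednra*, the receptor of endothelin in arch mesenchyme, rose by 0.62 (adjusted p = 0.00365), and *Dlx5*, its downstream homeobox gene in the lower jaw, was at 2.94 and 3.08 CPM against 7.13, 5.003 and 7.79 CPM (1.14, adjusted p = 0.0287). Without wt 1 *Ednra* had an adjusted p of 0.0642, and *Dlx5* ranged from 0.0627 to 0.147 without any library but Wnt9bKO 2. Without Wnt9bKO 1, 2 patterning factors rose and 5 fell, and without Wnt9bKO 2, 8 rose and none fell. Without wt 1, 2 rose.

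Of the mesenchyme factors 3 rose and 1 fell. *Foxp1* rose from 55.5 and 61.9 CPM to 162, 170 and 154 CPM (log2 fold change 1.46, SE 0.15, adjusted p = 7.80e-06). *Zeb1*, a driver of the mesenchymal state, rose from 60.2 and 66.8 CPM to 108, 125 and 123.2 CPM (0.90, SE 0.13, adjusted p = 1.47e-04), and *Foxd1* rose by 0.60 (adjusted p = 0.00254). *Foxf1*, a Hedgehog-responsive factor, fell from 23.9 and 24.7 CPM to 17.8, 10.7 and 14.9 CPM (-0.75, SE 0.17, adjusted p = 0.00387). With the offset 5 factors rose and none fell, likewise without Wnt9bKO 2, and without wt 2, 2 rose. Among 20 genes of surface epithelium, the layer that makes WNT9b, 1 rose and none fell. This was *Grhl3*, a factor of the epidermal barrier, at 3.75 and 3.14 CPM in wt and 11.97, 7.98 and 9.11 CPM in Wnt9bKO (1.504, SE 0.27, adjusted p = 7.69e-04). The summed epithelial level was 390 and 412 CPM in wt against 367 to 427 CPM in Wnt9bKO, with overlapping groups. In bulk tissue, fewer cells of a type and less RNA per cell cannot be told apart.

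**Figure D2:**
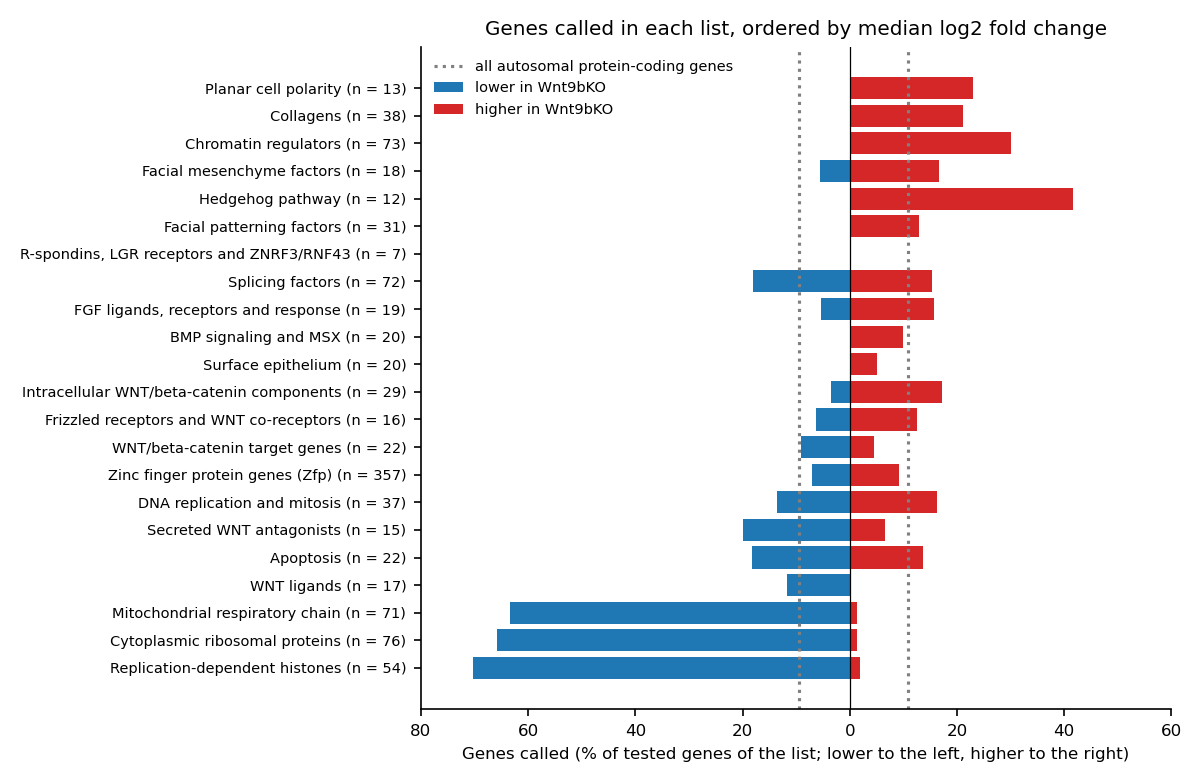
Percent of the tested genes of each list called lower (blue, to the left) or higher (red, to the right) in the libraries labelled Wnt9bKO against wt, ordered by the list's median log2 fold change, with the number of tested genes in brackets. Dotted lines mark the shares over all autosomal protein-coding genes, 9.55% lower and 10.9% higher. The list of WNT ligands leaves out *Wnt9b*. Histone, ribosomal protein and respiratory chain genes extend far to the left, with 70.4%, 65.8% and 63.4% lower.

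Markers of neighbouring tissues differed between the groups. The list of HOX-positive posterior arch and hindbrain holds genes that are silent in the first arch and active behind it. Of 6 such genes 4 passed the filter and 3 fell. *Hoxa2* was at 4.73 and 5.07 CPM in wt and at 0.160, 0.357 and 0 CPM in Wnt9bKO (log2 fold change -4.77, SE 0.72, adjusted p = 5.27e-04). *Hoxb2* was at 0.982 and 1.57 CPM against 0.213, 0.179 and 0.0599 CPM (-3.03, SE 0.60, adjusted p = 0.00120). *Hoxb1* was at 1.07 and 2.17 CPM in wt and at no more than 1 count in any library labelled Wnt9bKO, at least 9.02-fold lower against a floor of 3 counts per library (adjusted p = 0.00436, and 0.0605 without wt 2). The groups of these 3 genes were wide apart, and they were also lower than in the libraries labelled Rspo2KO (-5.31, -3.66 and -5.44). The list summed to 7.50 and 10.02 CPM in wt, 0.419 to 1.01 CPM in Wnt9bKO and 11.7 to 13.7 CPM in Rspo2KO, while the libraries labelled DKO ranged from 1.82 to 8.77 CPM. The part of this posterior tissue in other differences was not tested.

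Forebrain and eye genes were higher, with 6 of 10 that rose, none that fell and a median of 1.04. *Lhx2*, a factor of the early forebrain and eye field, was at 24.4 and 24.7 CPM in wt and at 32.4, 75.5 and 53.1 CPM in Wnt9bKO (log2 fold change 1.13, adjusted p = 0.00791). *Emx2* and *Six3* rose by 1.21 and 1.11, and *Rax*, a gene of the retina, by 0.97. The change of *Lhx2* was 0.83 without Wnt9bKO 2 (adjusted p = 0.00544), and it did not pass without wt 1 (0.0663), without wt 2 (0.0622) or with only wt and Wnt9bKO libraries in the model (0.0602). *Six3* and *Rax* did not pass without wt 2 (adjusted p = 0.0960 and 0.101). The list summed to 112 and 128 CPM in wt and to 140, 290 and 192 CPM in Wnt9bKO 1, 2 and 3, so Wnt9bKO 2, the library with low *Rspo2* and *Msx1*, held the most. The count that rose was 4 without wt 1 and 2 without wt 2, and 6 without Wnt9bKO 2, and 4 rose against the libraries labelled Rspo2KO.

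Heart and skeletal muscle genes rested on a single wt library. Of 12 listed, 8 passed the filter and 5 fell, but the list summed to 112 CPM in wt 1 and 31.4 CPM in wt 2 against 18.2 to 51.6 CPM in Wnt9bKO. *Myl7*, an atrial myosin light chain, was at 9.64 and 1.93 CPM in wt and at 0.372, 0.596 and 0.359 CPM in Wnt9bKO (-3.64, SE 0.58, adjusted p = 4.98e-04). *Myh7* was at 10.9 and 1.03 CPM against 1.12, 0.834 and 0.779 CPM, with wt 2 inside the mutant-labelled range. Without wt 1, 1 gene of the list fell and the changes of *Myh7* and *Myl4* were -0.17 and -0.25. Without Wnt9bKO 2 or Wnt9bKO 3, 2 fell.

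Blood markers were lower as a group. Of 11 erythroid genes 5 fell and none rose (median -0.69), and the list summed to 4006 and 4977 CPM in wt and to 1825 to 2446 CPM in Wnt9bKO. The embryonic globins led in abundance, *Hbb-y* with 2228 and 2730 CPM in wt and 1248, 774 and 1114 CPM in Wnt9bKO (-1.25, SE 0.23, adjusted p = 0.00120), and *Hbb-bh1* with 1067 and 1066 CPM against 453, 405 and 578 CPM (-1.16, adjusted p = 0.00261). *Epor* and *Klf1* fell by 0.74 and 0.69 on the log2 scale, and 2 erythroid genes fell with the offset or without wt 2 and 3 without Wnt9bKO 2 or wt 1. Macrophage markers gave 2 lower of 5, *Adgre1* (-0.93, adjusted p = 0.0109) and *Ptprc* (-0.73, adjusted p = 0.0376), and without wt 2 none passed, while 1 did without Wnt9bKO 2 or wt 1. Of 8 endothelial genes *Kdr* and *Cdh5* rose by 0.63 and 0.67 and *Emcn* fell by 0.65. Without wt 1 *Cdh5* and *Emcn* did not pass (adjusted p = 0.145 and 0.126), and with 1 library left out the list gave 1 or 2 higher and between 0 and 3 lower. Of 5 markers of glia and migrating neural crest, *Sox10* fell (-0.64, adjusted p = 0.0108, and 0.0958 without wt 2). Its change was under 1.5-fold without Wnt9bKO 2 (-0.53) or with the offset (-0.49). Neurons gave 2 lower of 11, among them *Tubb3*, a neuronal tubulin (-0.60, adjusted p = 0.00266), whose change was under 1.5-fold without Wnt9bKO 2 (-0.44) or wt 2 (-0.54).

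**Figure D3:**
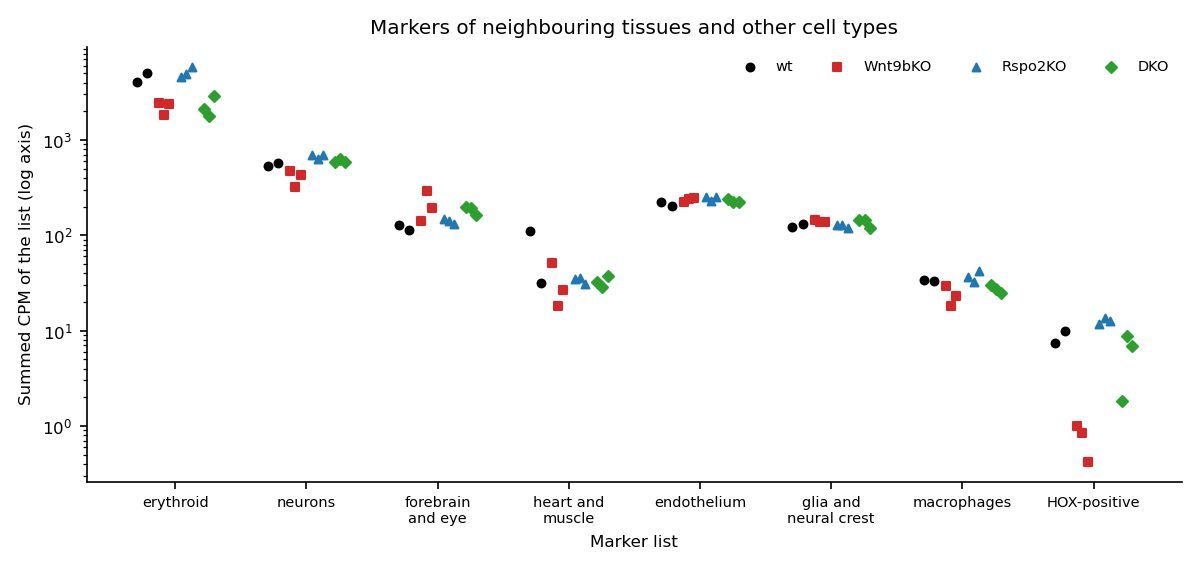
CPM summed over all genes of each marker list, tested or not, in each of the 11 libraries, on a log axis. Shown are wt (black circles) and libraries labelled Wnt9bKO (red squares), Rspo2KO (blue triangles) and DKO (green diamonds). The HOX-positive list lies between 0.419 and 1.01 CPM in the libraries labelled Wnt9bKO and at 7.50 and 10.02 CPM in wt, and the forebrain and eye list is highest in Wnt9bKO 2.

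Cell division genes moved in both directions. Of 37 genes of DNA replication and mitosis 6 rose and 5 fell (median -0.06). *Mcm2*, a subunit of the replicative helicase, fell from 457 and 453 CPM to 213, 246 and 231 CPM (-0.99, SE 0.11, adjusted p = 2.00e-05), and *Mcm5*, *Cdk1* and *Pcna* fell by 0.60, 0.80 and 0.63. *Cdkn1a*, the p21 inhibitor of the cycle, fell from 11.1 and 9.78 CPM to 3.03, 2.74 and 2.58 CPM (-1.90, SE 0.24, adjusted p = 4.21e-05). In the other direction *Rrm2*, a subunit of ribonucleotide reductase, rose from 102 and 115 CPM to 203, 261 and 259 CPM (1.15, SE 0.17, adjusted p = 1.50e-04), and *Plk1*, a mitotic kinase, rose from 42.2 and 38.8 CPM to 67.5, 81.6 and 81.7 CPM (0.93, adjusted p = 1.17e-04). *Cdt1*, *Ccnd2*, *Ccnd3* and *Cenpf* rose by 0.93, 0.78, 0.63 and 0.67. With the offset 3 rose and 4 fell, and 3 fell without wt 2.

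Apoptosis genes gave 3 higher and 4 lower of 22 tested, of 23 listed. *Trp53*, the gene of p53, rose from 49.0 and 51.7 CPM to 93.3, 132 and 114 CPM (1.17, SE 0.15, adjusted p = 4.07e-05), and *Mdm2*, which p53 induces and which degrades it, rose from 30.8 and 40.7 CPM to 56.1, 62.3 and 63.6 CPM (0.76, adjusted p = 3.70e-04). *Casp6*, an executioner caspase, fell from 43.7 and 39.5 CPM to 13.2, 11.2 and 16.2 CPM (-1.62, SE 0.16, adjusted p = 4.51e-06). *Bax*, a pore-forming death effector that p53 induces, fell by 0.61 (adjusted p = 0.00152). The others were *Trp73*, a relative of p53, which rose by 1.29, and the pro-apoptotic genes *Bik* and *Bad*, which fell by 1.36 and 0.63. The counts were 3 higher and 1 lower with the offset and 1 and 1 without wt 1, while 2 fell without Wnt9bKO 2 or Wnt9bKO 3 and 2 rose without Wnt9bKO 1 or wt 2.

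Genes of the translation and respiration machinery, which are short and abundant, were lower as groups. Of 76 cytoplasmic ribosomal protein genes tested, of 79 listed, 50 fell and 1 rose (65.8% lower against 9.55% of all genes), and the median was -0.71. For 64 of the 76 the libraries labelled Wnt9bKO lay under both wt libraries, as they did for 30.7% of all genes tested. The list summed to 34542 and 37372 CPM in wt against 21191 to 25857 CPM in Wnt9bKO. *Rps27a* fell from 284 and 270 CPM to 87.5, 90.4 and 121 CPM (-1.47, SE 0.16, adjusted p = 1.83e-05). The gene that rose was *Rps16*, described below. With the offset 42 fell, without wt 2 it was 40, and against the libraries labelled Rspo2KO 37 fell, while glmTreat called 7.

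Of 71 respiratory chain genes tested, of 73 listed, 45 fell and 1 rose (63.4% lower, median -0.68). Of the 71, 64 were separated downward, against 30.7% of all genes tested. *Uqcrq*, a subunit of complex III, fell from 91.4 and 97.6 CPM to 7.07, 7.33 and 9.83 CPM, 11.7-fold (log2 fold change -3.55, SE 0.16, adjusted p = 1.29e-09). Against the libraries labelled Rspo2KO, at 72.7 to 97.8 CPM, it was lower by a similar amount (-3.43), and the libraries labelled DKO held 7.96 to 10.7 CPM. *Atp5l*, of the ATP synthase, fell from 77.6 and 63.7 CPM to 16.0, 15.5 and 21.1 CPM (-2.01, SE 0.16, adjusted p = 6.95e-07), and *Ndufa8* and *Ndufa12*, of complex I, also fell (-1.32 and -1.30). The gene that rose was *Sdha*, of complex II, from 91.9 and 77.1 CPM to 147, 150 and 156 CPM (0.84). With the offset 42 fell, against the libraries labelled Rspo2KO 33 fell, and glmTreat called 17.

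Chromatin regulators, which are long genes, moved the other way. Of 73 tested 22 rose and none fell (30.1% higher against 10.9% of all genes), and the median was 0.40. Of the 73, 54 were separated upward, against 26.8% of all genes tested. *Brd3*, a reader of acetylated histones, rose from 74.2 and 70.4 CPM to 196, 178 and 186 CPM (1.37, SE 0.17, adjusted p = 4.60e-05), and *Smarcb1*, of the SWI/SNF remodeller, from 44.6 and 48.6 CPM to 108, 86.2 and 91.2 CPM (1.03, SE 0.16, adjusted p = 2.24e-04). *Chd2* and *Chd1* rose by 0.95 and 0.77, and histone methyltransferases of the KMT2 family (*Kmt2a*, *Kmt2b*, *Kmt2c*, *Kmt2d* and *Kmt2e*) by 0.63 to 1.39. With the offset 11 rose (median 0.23), without wt 1 also 11, and against the libraries labelled Rspo2KO 2 rose, while glmTreat called 4. Splicing factors split, with 11 higher and 13 lower of 72. *Hnrnpa1* rose from 264 and 351 CPM to 706, 696 and 766 CPM (1.23, adjusted p = 3.50e-05), with 30.8% of its windows shared, and the core proteins *Snrpd2* and *Snrpb* fell by 1.29 and 0.90.

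Collagens gave 8 higher and none lower of 38 tested, of 42 listed (median 0.45). *Col2a1*, the collagen of cartilage precursors, rose from 199 and 197 CPM to 317, 307 and 311 CPM (0.65, SE 0.12, adjusted p = 6.89e-04), and *Col18a1*, of basement membranes, from 160 and 142 CPM to 296, 314 and 281 CPM (0.98, SE 0.12, adjusted p = 2.94e-05). *Col5a1* was at 56.9 and 51.5 CPM against 124, 67.5 and 81.7 CPM (0.75, adjusted p = 0.0130), with Wnt9bKO 1 standing above the other mutant-labelled libraries. The count was 3 with the offset, 16 without Wnt9bKO 2, 5 without Wnt9bKO 1 and 4 without wt 1 or wt 2. Among 357 zinc finger genes named Zfp, 33 (9.24%) rose and 25 (7.0%) fell, shares under those of all genes, 31 and 29 did with the offset, and 22 and 20 rose without wt 1 and wt 2. *Zfp990* rose from 0.178 and 0.603 CPM to 4.15, 3.87 and 4.61 CPM (3.28, SE 0.42, adjusted p = 4.55e-05), and it shares 29.9% of its 50-base windows with other genes.

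Replication-dependent histone genes, whose transcripts end in a stem-loop and carry no poly(A) tail, were lower as well. Of 54 tested, of 59 listed, 38 fell and 1 rose (70.4% lower, median -1.09), and their share of all counts was 1.90% and 2.01% in wt and 0.881% to 1.01% in Wnt9bKO. *Hist2h4* stood at 825 and 834 CPM in wt and at 155, 153 and 133 CPM in Wnt9bKO (-2.50, SE 0.13, adjusted p = 5.82e-09). *Hist1h4h* stood at 1220 and 1106 CPM against 222, 283 and 249 CPM (-2.21, SE 0.14, adjusted p = 1.21e-07), and as 50.9% of its windows recur in other H4 genes, reads could be split between copies. With the offset 30 fell, without wt 2 it was 29, against the libraries labelled Rspo2KO 35 fell, and glmTreat called 17.

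Small non-coding RNAs, which likewise carry no poly(A) tail, shifted with the histones. Small nuclear RNAs, the cores of the spliceosome, took 354 and 349 counts per 1e6 total counts in wt and 81.8, 80.3 and 77.6 in Wnt9bKO, 4.40-fold less. Small nucleolar RNAs, which guide modification of ribosomal RNA, took 1469 and 1434 against 447, 611 and 487 (2.84-fold less). Small Cajal body RNAs took 1158 and 1256 against 674, 512 and 485 (2.19-fold less). In each of these classes all 3 mutant-labelled libraries lay below both wt libraries. The classes named misc_RNA (8581 and 9907 against 3014 to 3779.4) and ribozyme (18020 and 16283 against 4769 to 6780) were lower by 2.68- and 3.11-fold. Each of these 5 differences had an exact two-sided permutation p of 0.1, the smallest that 2 against 3 libraries allow. MicroRNA genes did not separate, at 132 and 107 against 108 to 120.

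Without ribosomal and mitochondrial RNA, small non-coding classes made up 2.97% and 2.93% of counts in wt and 0.95%, 1.19% and 0.95% in Wnt9bKO (log2 ratio -1.53). With them the share was 11.99% and 12.3% against 9.89% to 15.5% (log2 ratio 0.10, exact permutation p = 0.8), because the mitochondrial ribosomal RNAs, at 9.01% and 9.33% in wt and 8.93% to 14.5% in Wnt9bKO, outweighed all others. The shift divided the 11 libraries into 2 sets. The libraries labelled Rspo2KO held 2.31% to 2.82%, on the side of wt, and those labelled DKO 0.944% to 1.28%, on the side of Wnt9bKO. No label gives a batch or preparation date, so a difference in preparation cannot be told apart from one in genotype.

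**Figure D4:**
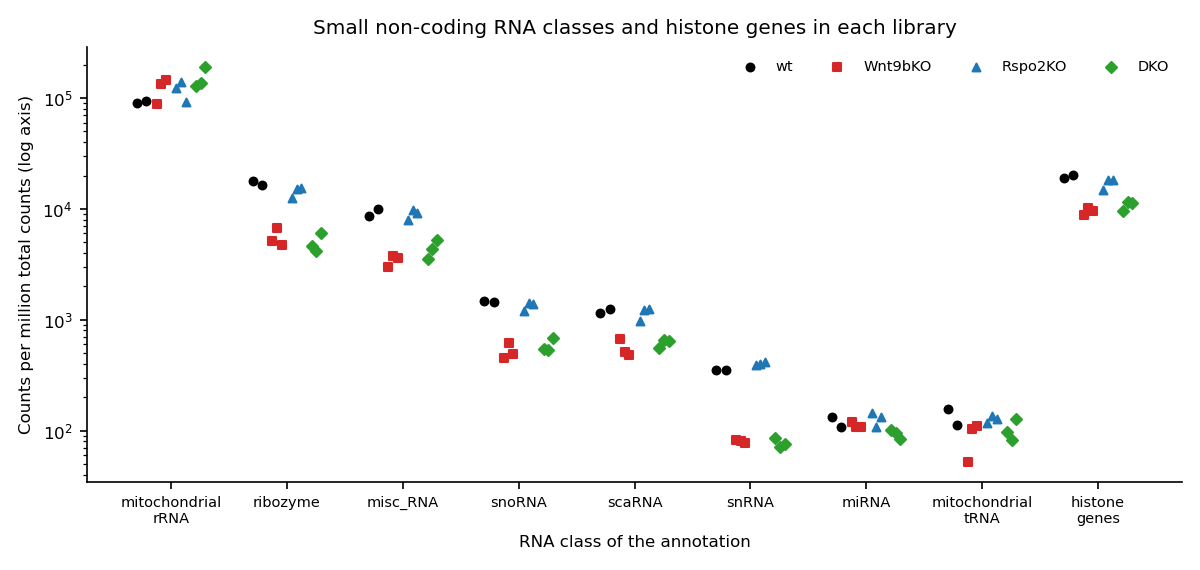
Counts per 1e6 total counts of each annotated small RNA class and of replication-dependent histone genes in each of the 11 libraries, on a log axis, with wt (black circles), Wnt9bKO (red squares), Rspo2KO (blue triangles) and DKO (green diamonds). Ribozyme, misc_RNA, snoRNA, scaRNA, snRNA and histone values of the libraries labelled Wnt9bKO and DKO lie below those of wt and Rspo2KO, while miRNA and mitochondrial rRNA values do not separate.

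Of 323 small non-coding genes tested outside the ribosomal and mitochondrial classes, 95 fell and 17 rose, against 9.07% lower and 11.8% higher over all 17317 genes tested. The most abundant nuclear-encoded members were *Rpph1*, the RNA of RNase P, with 12310 and 12515 CPM in wt and 3697, 6173 and 3564 CPM in Wnt9bKO, and *Rn7sk*, a regulator of transcription elongation, with 8349 and 9790 CPM against 2608, 3629 and 3493 CPM. Both fell, by 1.47 and 1.48 on the log2 scale. *Rmrp*, the RNA of RNase MRP, which cuts precursors of ribosomal RNA, fell further, from 5588 and 3958 CPM to 352, 615 and 570 CPM, 9.31-fold (-3.22, SE 0.24, adjusted p = 1.57e-06). *Scarna2* and *Scarna10* fell by 0.83 and 2.00. *Rprl3*, an RNA related to that of RNase P, stood at 9.46 and 0.603 CPM in wt and at 656, 1.31 and 706 CPM in Wnt9bKO 1, 2 and 3. Wnt9bKO 2 was at the wt level and the other 2 libraries were far above it, so the difference did not pass (adjusted p = 0.0598). The libraries labelled Rspo2KO held 0.823 to 0.947 CPM of *Rprl3* and those labelled DKO 629 to 1253 CPM.

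The sequences of *Rmrp* and of 2 less abundant members are given because they fell by 9.31- to 16.3-fold. *Rnu3a*, a small nucleolar RNA of the U3 type, went from 103 and 124 CPM to 8.35, 10.7 and 13.5 CPM (10.5-fold, adjusted p = 1.17e-06). *Gm25360*, annotated as a small nuclear RNA, went from 72.2 and 65.5 CPM to 3.56, 4.53 and 4.61 CPM (16.3-fold, adjusted p = 1.10e-10). These 2 were chosen after their values were seen. All 50-base windows of *Rmrp* and *Rnu3a* and 42.9% of those of *Gm25360* also occur in other annotated transcripts, so that reads of copies or overlapping genes cannot be told apart. For *Rpph1*, *Rn7sk* and *Scarna10* the shares are 64.7%, 73.0% and 82.5%. The transcripts are 271, 214 and 191 bases long and lie at chr4:43492788-43493058 (minus strand), chr10:40258467-40258680 (plus strand) and chr1:72226240-72226430 (plus strand) of GRCm38.
Rmrp: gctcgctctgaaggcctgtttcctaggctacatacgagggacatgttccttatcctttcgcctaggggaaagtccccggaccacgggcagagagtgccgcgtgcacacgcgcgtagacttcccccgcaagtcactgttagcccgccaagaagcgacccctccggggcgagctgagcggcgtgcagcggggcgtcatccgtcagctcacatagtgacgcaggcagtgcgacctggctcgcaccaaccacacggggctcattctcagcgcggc
Rnu3a: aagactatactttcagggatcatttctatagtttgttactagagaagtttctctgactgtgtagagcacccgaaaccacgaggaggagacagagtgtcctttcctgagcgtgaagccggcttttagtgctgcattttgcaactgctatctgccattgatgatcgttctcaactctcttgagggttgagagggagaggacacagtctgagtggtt
Gm25360: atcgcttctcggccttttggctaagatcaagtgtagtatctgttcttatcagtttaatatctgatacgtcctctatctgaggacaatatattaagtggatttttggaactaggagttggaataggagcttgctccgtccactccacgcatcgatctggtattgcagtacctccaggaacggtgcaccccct

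Single protein-coding genes were ranked among called genes without overlap and with a mean of at least 5 CPM, leaving out histones and unnamed genes. The 3 largest rises of this selection were in members of families of near-identical copies. Over all autosomal protein-coding genes tested, 92 had an estimate beyond 4-fold in either direction, whether called or not. Of these, 55 were among the 8450 genes with no 50-base window shared with another gene. A further 23 were among the 5317 with up to 50% of windows shared, and 14 among the 258 with over 50% shared. *Hmga1b* (chr11:120762794-120764419), a copy of the chromatin architectural gene *Hmga1*, was at the floor in wt, with 0 and 0.0603 CPM, and at 17.6, 11.6 and 11.98 CPM in Wnt9bKO, at least 51.2-fold higher. *Eno1b*, a copy of the glycolytic enzyme gene *Eno1*, was at 0 and 0.121 CPM against 26.2, 11.6 and 16.1 CPM, at least 67.2-fold higher. Of their 50-base windows 87.4% and 88.2% occur in another gene, chiefly in the parent gene, so reads could be assigned to either. The libraries labelled Rspo2KO held up to 0.126 CPM of either gene and those labelled DKO 9.28 to 26.1 CPM. *Hmga1* itself stood at 77.1 and 75.7 CPM in wt against 76.7 to 112 CPM in Wnt9bKO, and *Eno1* at 871 and 790 CPM against 282, 347 and 387 CPM. Summed over both copies, the log2 ratio was 0.54 for *Hmga1* and *Hmga1b* and -1.22 for *Eno1* and *Eno1b*.

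*Rps16*, a ribosomal protein gene, was at 6.60 and 5.01 CPM in wt and at 113, 76.5 and 139 CPM in Wnt9bKO, 19.1-fold higher (log2 fold change 4.25, SE 0.30, adjusted p = 2.90e-06), against the fall of 50 other genes of its list. Its windows are shared to 31.1%, chiefly with the pseudogene *Rps16-ps2*. That pseudogene held 0 CPM in both wt libraries and 0.0532 to 0.0599 CPM in Wnt9bKO. The 9 rises that followed in the same selection were between 3.59- and 4.54-fold and had few or no shared windows. *Gopc*, of Golgi trafficking, rose from 6.42 and 7.42 CPM to 30.4, 30.1 and 34.5 CPM (2.18, SE 0.17, adjusted p = 6.09e-07). *Rrs1*, needed to assemble the large ribosomal subunit, rose from 7.32 and 8.57 CPM to 34.1, 36.4 and 36.2 CPM (2.15, SE 0.20, adjusted p = 3.22e-06). *Cpe*, a carboxypeptidase that processes peptide hormones, rose from 13.1 and 12.6 CPM to 56.8, 43.7 and 48.6 CPM (1.96, SE 0.20, adjusted p = 8.74e-06). *Taf13*, *Ltbp4*, *Spint2*, *Nicn1* and *Cd9* rose by 1.84 to 2.10. *Nkx2-1*, a factor of the ventral forebrain and thyroid, was at 4.997 and 3.44 CPM against 14.7, 16.1 and 14.9 CPM (1.88, adjusted p = 0.00366, and 0.0548 without wt 2). Against the libraries labelled Rspo2KO its change was 0.78 (adjusted p = 0.0842), whereas the other 8 passed at an adjusted p there too.

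In the same selection, the largest falls after *Uqcrq* were in *Lars2*, *B9d2*, *Actc1* and *Tpt1*. *Lars2*, the mitochondrial leucyl-tRNA synthetase, was at 463 and 262 CPM in wt and at 50.5, 36.1 and 53.4 CPM in Wnt9bKO (-2.96, SE 0.51, adjusted p = 0.00376), and the libraries labelled Rspo2KO spread from 96.4 to 333 CPM, the highest of them above wt 2. *B9d2*, of the ciliary transition zone, fell from 10.7 and 11.7 CPM to 2.18, 1.91 and 2.10 CPM (-2.44, SE 0.20, adjusted p = 8.57e-07). *Tpt1*, an abundant growth-related protein gene, fell from 928 and 904 CPM to 148, 218 and 257 CPM (-2.14, SE 0.22, adjusted p = 2.45e-05). *Actc1*, cardiac actin, was at 24.4 CPM in wt 1 and 4.95 CPM in wt 2 against 4.73, 1.43 and 2.10 CPM, and without wt 1 its change was -0.84 (adjusted p = 0.237). Without Wnt9bKO 2 and Wnt9bKO 3 its adjusted p was 0.0639 and 0.0679. *Tbx20*, a factor of the heart and of branchial motor neurons, was at 11.2 and 14.5 CPM against 2.34, 5.24 and 2.16 CPM (-2.00, adjusted p = 0.0225), and its adjusted p ranged from 0.0573 to 0.121 without Wnt9bKO 1, Wnt9bKO 3, wt 1 or wt 2. *Robo3*, which guides axons of hindbrain neurons across the midline, fell from 12.3 and 17.5 CPM to 4.95, 4.11 and 2.94 CPM (-1.90, SE 0.25, adjusted p = 6.59e-05). *Qdpr*, *Mrpl14*, *Cdkn1a* and *Banf1* fell by 1.86 to 1.94.

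**Figure D5:**
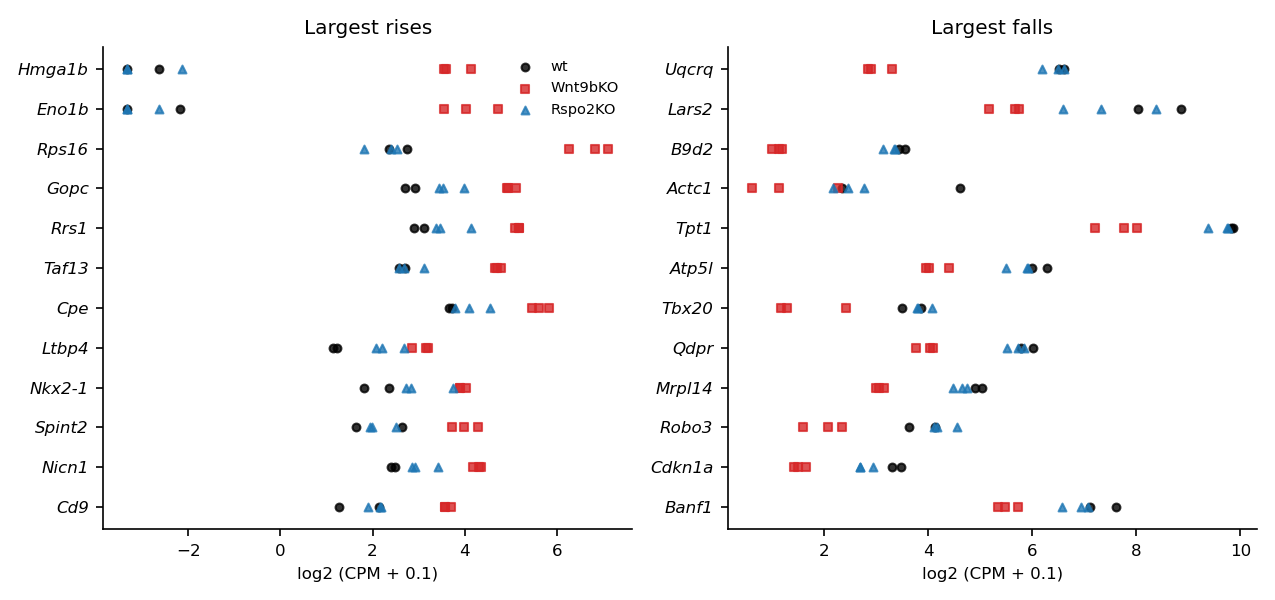
Levels of 24 single genes, the 12 strongest rises and the 12 strongest falls of the same selection, as log2 of CPM plus 0.1. Shown are wt (black circles), libraries labelled Wnt9bKO (red squares) and libraries labelled Rspo2KO (blue triangles). Wnt9bKO and wt values do not overlap for any of the 24 genes, by the rule that chose them, while *Actc1* has 1 wt library far from the other.

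The most abundant genes among those called came from several roles. *Hsp90ab1*, a cytosolic chaperone, was highest of those that rose, at 2139 and 1564 CPM in wt and 2827, 3024 and 2800 CPM in Wnt9bKO (0.64, SE 0.14, adjusted p = 0.00269, and 0.0626 without wt 2). The heterochromatin protein gene *Cbx5*, the RNA-binding protein gene *Hnrnpk*, the histone chaperone gene *Set*, the dynein heavy chain gene *Dync1h1* and the remodeller gene *Chd4* rose by 0.73 to 0.93. *Pkm*, a glycolytic kinase, was highest of those that fell, at 3703 and 3893 CPM against 2231, 2521 and 2242 CPM (-0.70, SE 0.14, adjusted p = 0.00127). The chaperone *Hspa8*, the ribosomal scaffold *Rack1* and the ribosomal proteins *Rps3* and *Rplp0* fell by 0.64 to 0.83, and *Hbb-y*, given above, was the sixth. *Pkm*, *Hspa8* and *Rplp0* share 25.9%, 38.3% and 28.9% of their windows with other genes. The call of *Rack1* was lost without wt 2 (adjusted p = 0.0540).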

How the data were processed

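Total RNA from facial process explants was sequenced, and the authors deposited counts, the whole number of reads assigned to each gene in each library, without normalization. Per the methods, the authors ran Cutadapt on the single-end reads, aligned with STAR to the GRCm38 build and obtained gene counts from HTSeq-Count. The strand setting is not given in the sources used here, so reads of overlapping and antisense genes cannot be told apart, and versions are not given either. Of 38561 genes, 36723 matched the GENCODE annotation of GRCm38 by identifier. Genes without an entry took 0.376% to 0.686% of counts and were kept in the model.

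Counts were tested with edgeR 4.0.16 (R 4.3.3, limma 3.58.1): TMM factors, filterByExpr, a quasi-likelihood fit with a mean for each genotype over 11 libraries, two-sided tests, and Benjamini-Hochberg adjustment over 17317 genes. The methods describe 3 samples for each genotype, and 2 wt libraries were analysed here. Calls need an adjusted p under 0.05 and a change over 1.5-fold. Where no library of a group exceeded 3 counts the gene was taken as at the floor, which covers counting error only. Sharing between genes was measured in 50-base windows of the transcripts. Python 3.11.15 with numpy 2.4.6, pandas 2.3.3 and matplotlib 3.10.9 made tables and figures. Small RNA classes follow the annotation, and CPM values use TMM-scaled totals.

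Named genes are those the study followed, the 12 largest rises and falls among called genes without overlap and with a mean of at least 5 CPM, the 6 most abundant in each direction, in each list up to 4 called genes with the smallest p (or, with none called, the 2 most abundant), and the 8 most abundant small non-coding genes. Histones and unnamed genes were left out of the largest changes. Further genes of a list were named after their values were seen, and some genes that the rule takes are not reported here. The comparison, its members and the lists were chosen with earlier results of these data known. On simulated counts, 62 of 93 genes changed 2-fold and 93 of 103 changed 4-fold were recovered, with 13 false calls among 16968 genes. The simulation held no length slope and no difference in sex or preparation between the groups. Its number of false calls therefore covers the spread between libraries only. Alternatives were DESeq2 1.42.0, other scaling factors and filters, a smaller model, autosomal protein-coding genes only, a loess offset on GC content and length (span 0.3), a block for the replicate number, glmTreat and leaving out each library. With a single wt library, that library was assumed to vary like the other groups. The share of small RNA without ribosomal and mitochondrial classes was added after the data were seen.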

Additional observations from a re-analysis of the deposited data

Results flagged for a closer look

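Y-linked genes lie outside the genes described above and carried signal in the libraries labelled Wnt9bKO. Their summed counts were at least 5267 in these libraries, against 721 in the higher of the 2 wt libraries.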

How the results depend on the processing

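With glmTreat, the counts of genes higher and lower were 318 and 269 (1016 and 789 with p unadjusted), and *Wnt9b* kept its log2 fold change of 0.61 with an adjusted p of 0.783. Leaving out a library, counts ranged from 1034 to 1627 higher and from 1110 to 1457 lower, and the log2 fold change of *Wnt9b* from 0.42 to 0.78. Under the other alternatives the counts stayed within 1.5 times those reported. Leaving out a library, *Rspo2* ranged from -0.56 to 0.43 (without Wnt9bKO 2), *Axin2* from -0.16 to 0.28, *Fgf8* from -0.17 to 0.37, *Fgf10* from -0.14 to 0.26, *Msx2* from -0.14 to 0.42 and *Bmp4* from -0.10 to 0.36. Small changes also turned sign with the replicate block (*Fgf8* -0.0345, *Fgf10* -0.0397, *Msx2* -0.0876), with the offset (*Fgf10* -0.00636) and with both (*Fgf10* -0.0510, *Msx2* -0.0648). The cause was not tested. Over 135 named genes and up to 16 alternatives, 2147 values were compared by direction and adjusted p alone, without the fold threshold. Of these, 1955 kept both, and 172 no longer had an adjusted p under 0.05 (62 of them with glmTreat and 81 without a library). A further 4 came under it and 16 turned sign. The log2 ratio of the small non-coding share, 0.10 for all classes, was -2.14 for small nuclear RNAs only, -1.05 without the most abundant gene and -1.53 without ribosomal and mitochondrial RNA, which follows from the classes left out, and it ranged from -0.02 to 0.31 without a library.

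Over 15 pairs of libraries that share a replicate number the correlations of their deviations ran from -0.11 to 0.24 (median 0.0659, 3 above 0.1), against a median of -0.0236 over 30 pairs with different numbers (1 above 0.1). Pairs among the mutant groups were all positive (0.0415 to 0.236), a hint from the data, but as not every pair exceeded 0.1 the numbers were not taken to pair the samples. With the replicate number as a block, 1623 genes were higher and 1476 lower, and with the offset added 1362 and 1324. Of the named genes, *Edn1* came under an adjusted p of 0.05 with the block and *Grem1* rose above it, and no other gene crossed it. With 2 wt libraries the precision of wt levels limits every comparison, and changes under 1.5-fold were not called.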
